A study of Mus musculus with 17 samples.

Results

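The comparison described here is that of retina from mice labelled Rabgef1 KO with retina from mice labelled WT at postnatal day 10 (P10). It was chosen by the age and genotype in the sample labels and holds 6 of the 17 libraries of the series, 3 labelled KO and 3 labelled WT, with every gene that passed a filter on low counts (16372 of 32177). The series has 6 further libraries at P6 and 5 at P14, which entered the model of spread. Each library was made from poly(A) RNA of whole retina with a kit that keeps the strand. The animals came from intercrosses of mice heterozygous for the Rabgef1 deletion, in a colony that had been refreshed by crossing to BALB/cJ. KO animals were Rabgef1-/-, a deletion that is not confined to a cell type. Wildtype and heterozygous littermates both served as controls in the study, and the label WT does not say which of these a library came from. By the study's methods, its founders carried neither rd1 nor rd10, and both sexes entered its experiments, but the labels do not give the sex of a library. The labels describe the libraries as biological replicates, with no statement of pooling. KO and WT are used below as the labels give them.

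RabGEF1 is the exchange factor that, with its partner Rabaptin-5, loads the small GTPase Rab5 with GTP on early endosomes, and Rab5 in turn recruits effectors such as EEA1. In rods, light leads to activation of the G protein transducin, which switches on a phosphodiesterase that breaks down cyclic GMP and so closes the cyclic nucleotide gated channel of the outer segment. Recovery needs arrestin, a receptor kinase and guanylate cyclases that are switched on by the calcium sensors GCAP1 and GCAP2. The mouse eye is still closed at P10, and rods are then building their outer segments.

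The promoters below belong to genes that were lower in the KO libraries, among them Crx, the homeobox factor of photoreceptors, and were picked to show where the letters of a core site for CRX stand in them. Each runs from 250 bases before to 50 bases after the first start listed for the gene in RefSeq (GRCm38.p6), 5′ to 3′ on the strand of the gene. Capitals mark the CRX core TAATCC, which reads GGATTA on the other strand, and in Sag also the NRL element TGCTGA.
Gngt1, chr6:3993758-3994057, forward strand: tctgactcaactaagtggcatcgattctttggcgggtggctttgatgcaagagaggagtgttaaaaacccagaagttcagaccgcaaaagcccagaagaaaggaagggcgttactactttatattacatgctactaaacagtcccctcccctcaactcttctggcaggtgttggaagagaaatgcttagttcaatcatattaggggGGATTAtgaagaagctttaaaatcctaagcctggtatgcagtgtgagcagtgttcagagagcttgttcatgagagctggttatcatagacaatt
Sag, chr1:87803430-87803729, forward strand: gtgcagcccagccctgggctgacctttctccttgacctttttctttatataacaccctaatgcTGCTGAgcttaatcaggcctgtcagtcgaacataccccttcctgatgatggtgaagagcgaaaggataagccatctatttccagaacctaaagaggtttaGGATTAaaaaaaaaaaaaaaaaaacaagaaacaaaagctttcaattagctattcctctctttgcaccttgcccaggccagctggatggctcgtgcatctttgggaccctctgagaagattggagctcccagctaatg
Cngb1, chr8:95306536-95306835, reverse strand: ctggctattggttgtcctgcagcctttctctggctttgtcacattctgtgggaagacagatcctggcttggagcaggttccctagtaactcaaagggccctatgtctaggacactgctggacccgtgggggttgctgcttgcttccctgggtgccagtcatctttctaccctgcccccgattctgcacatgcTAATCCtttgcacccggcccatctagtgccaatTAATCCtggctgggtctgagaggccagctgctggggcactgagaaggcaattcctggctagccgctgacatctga
Gucy2f, chrX:142196887-142197186, reverse strand: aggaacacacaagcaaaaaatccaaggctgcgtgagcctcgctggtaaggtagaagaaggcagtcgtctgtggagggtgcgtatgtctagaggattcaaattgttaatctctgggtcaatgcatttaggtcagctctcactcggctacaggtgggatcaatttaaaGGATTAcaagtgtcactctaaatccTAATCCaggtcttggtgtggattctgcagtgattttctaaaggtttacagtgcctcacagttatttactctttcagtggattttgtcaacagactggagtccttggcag
Crx, chr7:15879906-15880205, reverse strand: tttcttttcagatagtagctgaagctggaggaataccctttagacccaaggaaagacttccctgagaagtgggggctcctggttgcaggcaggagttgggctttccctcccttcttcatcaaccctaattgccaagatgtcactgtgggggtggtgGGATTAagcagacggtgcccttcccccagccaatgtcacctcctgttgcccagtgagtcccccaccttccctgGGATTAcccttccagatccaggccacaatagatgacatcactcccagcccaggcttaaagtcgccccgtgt
Samd7, chr3:30746043-30746342, forward strand: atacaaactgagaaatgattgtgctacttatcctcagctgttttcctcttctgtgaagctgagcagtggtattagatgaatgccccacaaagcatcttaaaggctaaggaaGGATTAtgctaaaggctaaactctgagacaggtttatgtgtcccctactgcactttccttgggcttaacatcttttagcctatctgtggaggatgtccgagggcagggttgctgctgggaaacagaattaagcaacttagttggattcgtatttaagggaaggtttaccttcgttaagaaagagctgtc

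Positions are counted from the start, which is 0, and give the first base of the match on the strand shown. The core began at position -44 in Gngt1, whose RefSeq start lies inside the gene as GENCODE draws it, at -87 in Sag and at -139 in Samd7. Cngb1 held it at -58 and -25, Gucy2f at -84 and -59, and Crx at -94 and -21. Searched on both strands, the core was present in 7.16% of 27025 promoters of the table and in 5.82% of the 12116 promoters of genes tested. It was present in 37 of 336 promoters (11.01%) of genes lower in KO at an unadjusted p under 0.1, and in 28 of 415 (6.75%) of those higher. Of the 14 rod phototransduction genes with a promoter in the table, 8 (57.1%) held it, as did 1 of 7 of the cone list. The NRL element was in 19.1% of all promoters, in 59 of the 336 lower genes (17.6%), and in 4 of the 14 rod phototransduction promoters (28.6%). Matches and differences did not go together in every gene. Guca1a held the core at -57 with a log2 fold change of -0.13 (unadjusted p = 0.592), whereas Pdc, Pde6b, Gnb1 and Rom1 were lower at an unadjusted p under 0.1 without it in this window. These are matches of letters, and binding was not measured.

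The labels were checked first with the targeted gene. Rabgef1 (ENSMUSG00000025340, chromosome 5, 130171798 to 130214342, forward strand, GRCm38) was measured at 101, 68.7 and 77.1 CPM (counts scaled to the library total) in WT libraries 1 to 3 and at 68.4, 83.0 and 78.0 CPM in KO libraries 1 to 3. The groups overlapped, WT library 1 was the highest, and the log2 fold change (KO minus WT throughout) was -0.11 ± 0.11 (SE), with an unadjusted p of 0.363. Leaving out WT library 1 turned it to 0.07. The RNA total of the gene therefore does not separate the genotypes at P10, and the labels rest on the genotyping of the submitters. At P6 the log2 fold change was 0.10 (edgeR unadjusted p = 0.397). At P14 it was -0.53 (edgeR unadjusted p = 0.000755), with 162 and 142 CPM in KO and 225, 219.9 and 211 CPM in WT. The paper reports that RabGEF1 protein was undetectable in KO retina. At P10 the transcripts of Rabgef1 gave different orders of the libraries. The protein-coding ENSMUST00000026390 was at 40.0, 11.9 and 15.1 CPM in WT and 9.80, 14.4 and 10.1 CPM in KO, whereas ENSMUST00000119797 was at 47.9, 48.7 and 52.2 CPM in WT and 48.5, 55.7 and 54.7 CPM in KO. A transcript with a retained intron, ENSMUST00000147493, was higher in every KO library (3.96, 5.10 and 5.37 CPM) than in any WT library (3.94, 2.91 and 2.89 CPM). Its exact permutation p (two-sided) was 0.1, the smallest that 3 against 3 libraries allow, and the nearest KO and WT libraries lay at 3.96 and 3.94 CPM.

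Several libraries stood apart from their group. Total counts were 16465318 to 17842849, and the defining markers of rods (Sag, Nrl), bipolar cells, amacrine cells and Müller glia were present in all 6 libraries, as the label retina requires. The 24 lens markers tested summed to 1724 CPM in KO library 1 and to 282 CPM in WT library 2, against 38.2 to 69.9 CPM in the other 4. The 4 Y-linked genes Ddx3y, Eif2s3y, Kdm5d and Uty summed to 187 and 190.0 CPM in KO libraries 2 and 3 and to 3.30 to 5.92 CPM in all WT libraries and KO library 1. Only KO thus holds libraries with Y-linked expression, and a difference between KO libraries 2 and 3 and WT cannot be told apart from a difference of sex. Results were therefore also computed without KO library 1 and WT library 2, without each library in turn, and with the summed Y-linked expression as a covariate, and the values are given where they change a call or a count. In bulk retina, fewer cells of a type and less RNA per cell cannot be told apart.

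**Figure D1:**
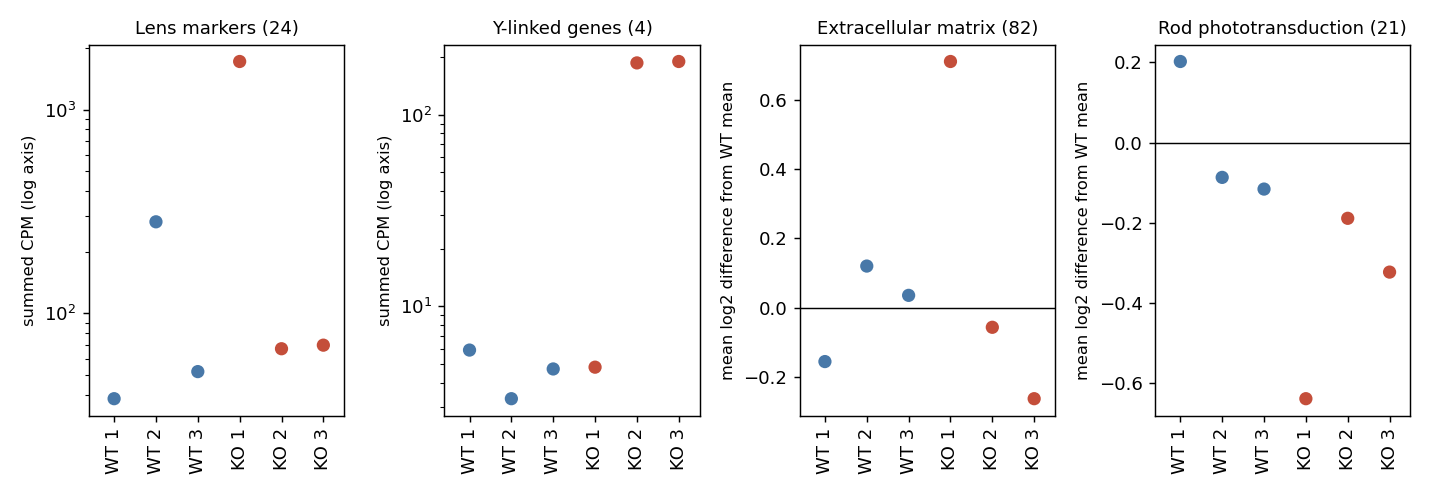
Markers and gene lists in each of the 6 P10 libraries (blue WT, red KO). From left to right the panels show the summed CPM of 24 lens markers and of 4 Y-linked genes, both on a log axis, and the mean log2 difference from the WT mean of 82 extracellular matrix genes and 21 rod phototransduction genes. KO library 1 is the highest for lens and matrix genes and the lowest for rod genes, and the Y-linked genes are high in KO libraries 2 and 3 alone.

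Across all genes, no single difference passed an adjusted p of 0.05 in edgeR's quasi-likelihood test with Benjamini-Hochberg adjustment (0% of 16372 genes). The smallest adjusted p was 0.125. At an unadjusted p under 0.05 there were 484 genes, 274 higher and 210 lower in KO. At the study's threshold, an unadjusted p under 0.1, 1077 genes were counted (6.58% of those tested), 607 higher (3.71%) and 470 lower (2.87%), and these counts carry no correction for the number of genes. Where no gene differs, this threshold passes a share of about 0.1 of genes, so the 1077 are no excess. The 484 genes are likewise fewer than a threshold of 0.05 alone would pass. All KO libraries lay above all WT libraries for 697 genes (4.26%) and below them for 846 (5.17%). Together these were 1543 genes, and the order of 3 against 3 libraries alone gives a share of 0.1. By DESeq2, 9 genes passed an adjusted p of 0.05, and by limma-voom none did. The 9 were Guca1b, Zfp781, Gal3st4 and 6 pseudogenes named after their values were seen, Gm15975, Gm10243, Rpl35a-ps2, Rpl35a-ps3, Rpl35a-ps4 and Rpl35a-ps6. The last 5 shared the same values, so that their reads cannot be assigned to 1 copy. Rpl35a-ps2, for example, was at 0 in the WT libraries and KO library 1 and at 14.02 and 10.1 CPM in KO libraries 2 and 3, the libraries that also held Y-linked RNA, and the part of sex in this was not tested. The median log2 fold change of all genes was -8.1e-05.

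**Figure D2:**
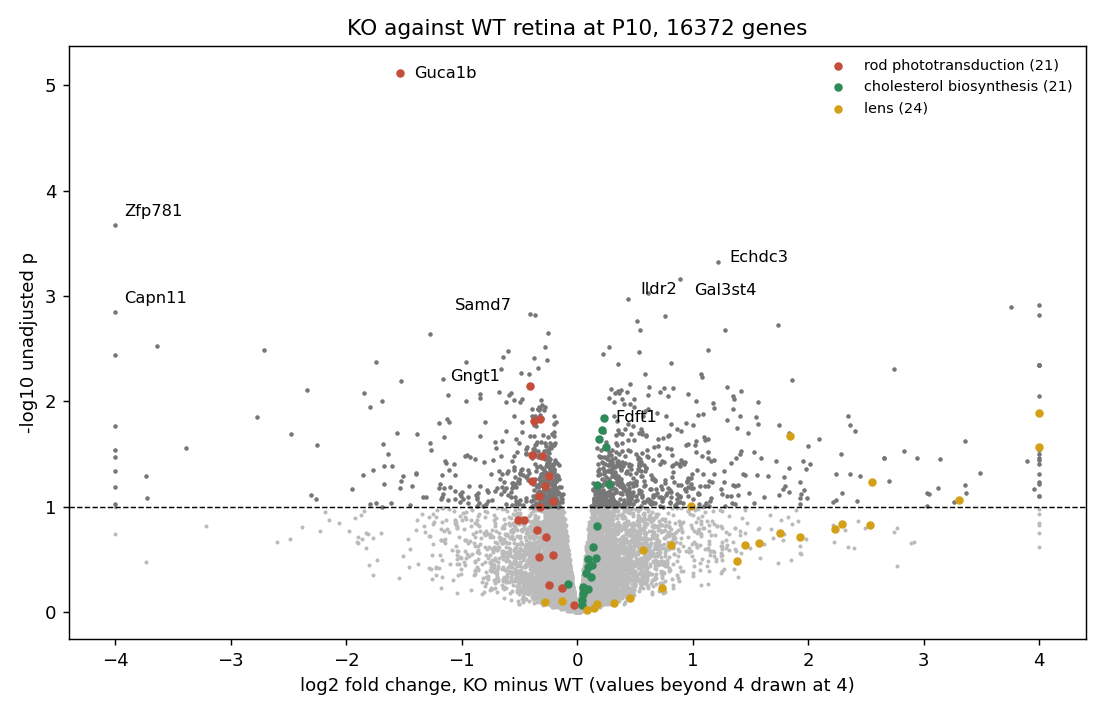
Log2 fold change (KO minus WT, values beyond 4 drawn at 4) against -log10 of the unadjusted p for 16372 genes at P10. Each point is a gene, points above the dashed line have an unadjusted p under 0.1, and coloured points are members of 3 lists. The 21 rod phototransduction genes all lie left of 0, 20 of 21 cholesterol biosynthesis genes lie right of 0, and Guca1b stands highest.

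The gene with the smallest p was Guca1b, which encodes the guanylate cyclase activator GCAP2 (ENSMUSG00000023979, chromosome 17, 47385393 to 47392967, forward strand). It was measured at 64.1, 64.8 and 57.6 CPM in WT libraries 1 to 3 and at 16.6, 29.9 and 17.8 CPM in KO libraries 1 to 3. Every KO library was below every WT library, with means of 62.1 ± 3.99 CPM in WT and 21.4 ± 7.38 CPM in KO (SD, n = 3 each). The log2 fold change was -1.53 ± 0.23 (SE), and edgeR's quasi-likelihood test gave an unadjusted p of 7.66e-06 and a Benjamini-Hochberg adjusted p of 0.125. Over 16 alternatives of the processing the adjusted p ran from 2.52e-07 with DESeq2 to 1, and it was 0.402 with the Y-linked covariate and 0.0163 without KO library 2. Its main transcript, ENSMUST00000024774, was at 62.4, 63.7 and 56.5 CPM in WT and 16.4, 28.8 and 17.1 CPM in KO. The neighbouring gene Guca1a, which encodes the other activator GCAP1 (chromosome 17, 47394558 to 47400584, reverse strand), gave a smaller value. It was at 38.4, 31.9 and 25.8 CPM in WT and 27.6, 25.1 and 35.1 CPM in KO, the groups overlapped, and the log2 fold change was -0.13 ± 0.24 (SE, unadjusted p = 0.592).

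Guca1b rose during this period in WT retina, with a log2 fold change from P6 to P14 of 5.81 ± 0.18 (SE, edgeR adjusted p = 5.84e-07). At P6 it was at 5.33, 5.82 and 5.40 CPM in the 3 WT libraries and 4.94, 2.47 and 4.80 CPM in the 3 KO libraries, all below those of P10. At P14 it was at 234, 320.1 and 351 CPM in the 3 WT libraries and 212 and 138 CPM in the 2 KO libraries. The log2 fold change of KO was -0.44 at P6 and -0.79 at P14, and the effect at P10 differed from them by -1.09 ± 0.38 (SE, unadjusted p = 0.0105) and by -0.75 ± 0.34 (unadjusted p = 0.0411). Both differences had an adjusted p of 1 in edgeR, so that the effect is not shown to be particular to P10. No gene passed an adjusted p of 0.05 for a difference of its effect at P10 from that at P6 or at P14, by edgeR or by limma-voom. At an unadjusted p under 0.05 these were 621 and 260 of 16372 genes by edgeR and 550 and 272 by limma-voom. Each count is below the share of 0.05 that this threshold passes where no effect differs.

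**Figure D3:**
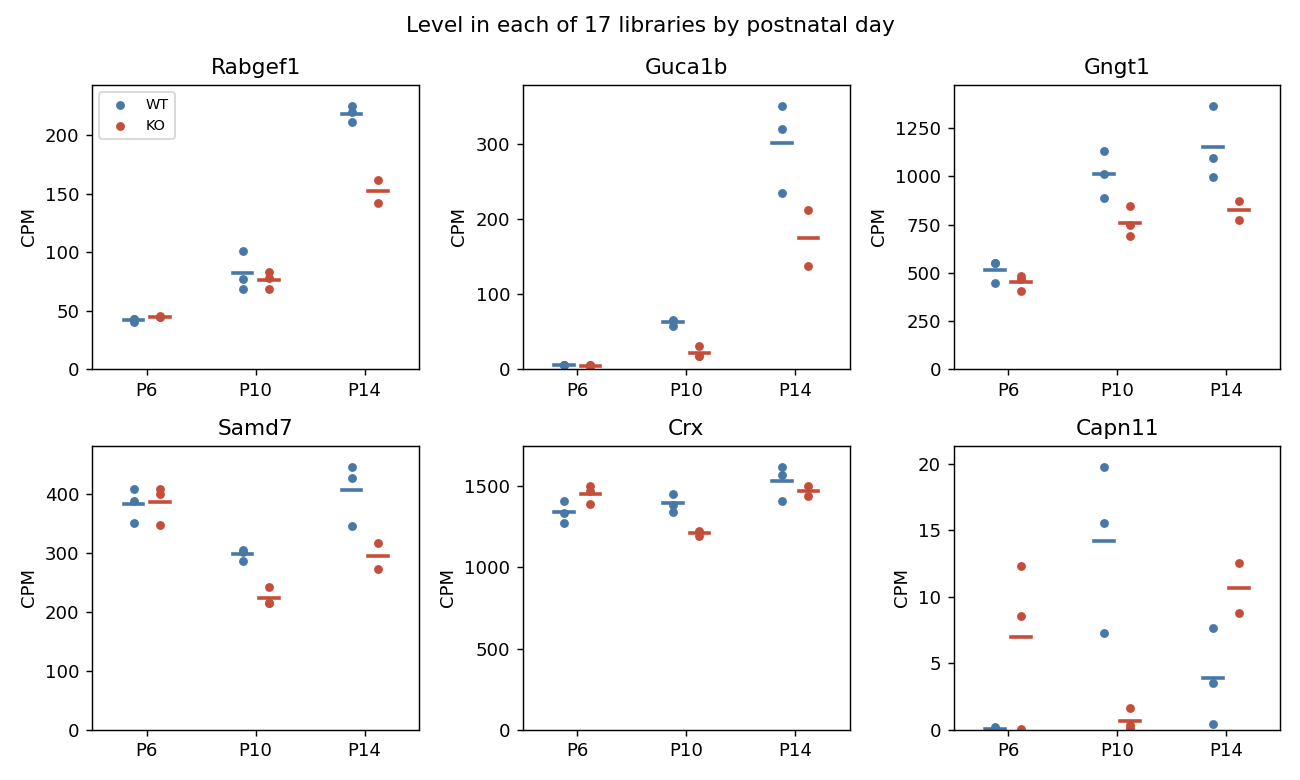
CPM of 6 genes in each of the 17 libraries at P6, P10 and P14 (blue WT, red KO, short lines are group means, each axis starts at 0). Guca1b increases with age, and its KO points lie below the WT points at P6, P10 and P14. Capn11 is higher in WT at P10, whereas at P6 only 2 KO libraries exceed 1 CPM.

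The other members of the rod cascade were lower by smaller amounts. All 21 genes of the rod phototransduction list had a log2 fold change below 0, with a median of -0.33 and a range from -1.53 to -0.03. At an unadjusted p under 0.1, 11 were lower (52.4% of the list, against 2.87% of all genes) and none higher, and 6 of them were under 0.05. All KO libraries lay below all WT libraries for 11 of the 21 members, against 5.17% of all genes. None passed an adjusted p of 0.05 in edgeR's test of all libraries, while Guca1b did with DESeq2 (2.52e-07) and in edgeR without KO library 2 (0.0163), in a range of 2.52e-07 to 1 over 16 alternatives. Averaged over the list, the log2 difference from the WT mean was 0.20, -0.09 and -0.12 in WT libraries 1 to 3 and -0.64, -0.19 and -0.32 in KO libraries 1 to 3. WT library 1 gave the highest value of the 6 libraries for 19 of the 21 genes and KO library 1 the lowest for 17. The count of 11 was 5 without KO library 1, 4 without WT library 1, 5 without KO library 1 and WT library 2, and 8 with the Y-linked covariate, while the median stayed between -0.41 and -0.21 with any 1 library left out. This list was written with earlier results of these data known, so its direction is not independent evidence.

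**Figure D4:**
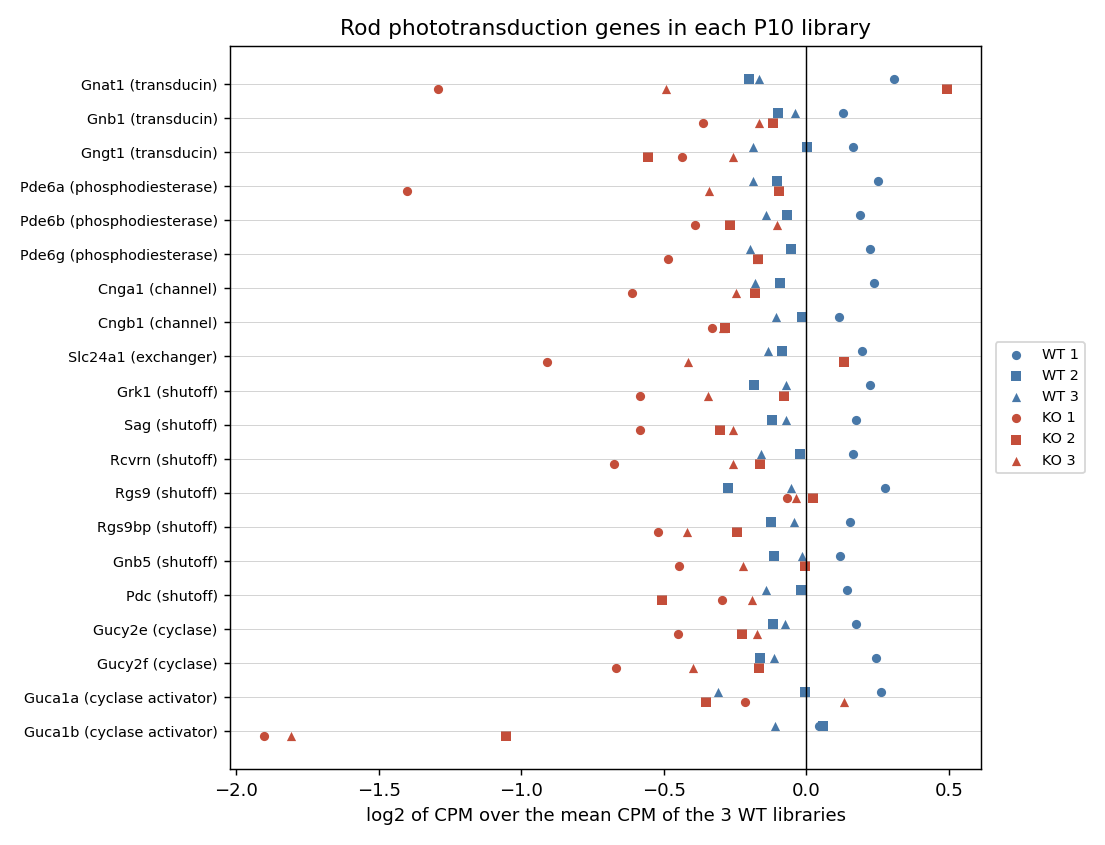
Log2 of the CPM of each rod phototransduction gene over its mean in the 3 WT libraries, for each P10 library (blue WT, red KO, symbols give the replicate). Genes are ordered by their role in the cascade. Of the 21 genes, 20 are drawn. WT library 1 (blue circles) is the rightmost point and KO library 1 (red circles) the leftmost for most of them.

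Upstream in the cascade stands transducin, of which Gngt1, the gamma subunit, was at 1132, 1011 and 888 CPM in WT and 747, 688 and 846 CPM in KO (-0.41 ± 0.13, unadjusted p = 0.00715), with every KO library below every WT library. Gnb1, the beta subunit, which other cells of the retina also express, was at 4061, 3466 and 3606 CPM in WT and 2887, 3424 and 3303 CPM in KO (-0.21 ± 0.12, unadjusted p = 0.0884). Gnat1, the alpha subunit, overlapped between the groups (-0.25 ± 0.40, unadjusted p = 0.546), with KO library 2 the highest of the 6. Among the phosphodiesterase subunits, Pde6b was at 1600.1, 1338 and 1272 CPM in WT and 1071, 1167 and 1308 CPM in KO (-0.25 ± 0.12, unadjusted p = 0.0508), and KO library 3 lay above WT library 3. Pde6a and Pde6g had log2 fold changes of -0.51 and -0.27 and overlapped between the groups.

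Both subunits of the rod cyclic nucleotide gated channel were lower in every KO library. Cngb1 was at 768, 702 and 658 CPM in WT and 564, 582 and 579 CPM in KO (-0.30 ± 0.13, unadjusted p = 0.033), and its KO libraries spanned less than its WT libraries. Cnga1 was at 550.0, 438 and 412 CPM in WT and 305, 412 and 393 CPM in KO (-0.33 ± 0.18, unadjusted p = 0.0788), with KO library 2 next to WT library 3. Both guanylate cyclases of photoreceptors showed the same order of the groups. Gucy2f was at 159.9, 121 and 125 CPM in WT and 85.1, 120.3 and 103 CPM in KO (-0.40 ± 0.17, unadjusted p = 0.032), and the nearest libraries of the groups differed by less than 1 CPM. Gucy2e was at 394, 322 and 332 CPM in WT and 255, 298 and 309 CPM in KO (-0.28 ± 0.14, unadjusted p = 0.0628). The log2 fold change of Guca1b was thus several times that of the cyclases its protein activates, although this difference between genes was not tested.

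Among the genes that end the response, Sag, the rod arrestin, was at 4829, 3939.5 and 4077 CPM in WT and 2860.0, 3468 and 3579 CPM in KO (-0.37 ± 0.14, unadjusted p = 0.0153). Pdc, which encodes phosducin, a protein that binds transducin beta and gamma subunits, was at 2609.7, 2333 and 2144 CPM in WT and 1922, 1662 and 2068 CPM in KO (-0.33 ± 0.12, unadjusted p = 0.0146). In both, every KO library was below every WT library, and the lowest was KO library 1 for Sag but KO library 2 for Pdc. Rgs9bp, the membrane anchor of the complex that speeds GTP hydrolysis by transducin, was at 356, 294 and 311 CPM in WT and 223, 270.4 and 239 CPM in KO (-0.39 ± 0.19, unadjusted p = 0.057). Rgs9 itself had a log2 fold change of -0.03 ± 0.14 (unadjusted p = 0.846), the nearest to 0 of the list. The receptor kinase gene Grk1 and Rcvrn, which encodes the calcium sensor recoverin, had log2 fold changes of -0.32 ± 0.18 and -0.35 ± 0.24 with unadjusted p-values of 0.101 and 0.164.

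The cone cascade gave values on both sides of 0. Of 11 cone phototransduction genes, 5 had a log2 fold change above 0 and 6 below, and the median was 0.00. At an unadjusted p under 0.1, 1 was lower (9.09%, against 2.87% of all genes) and none higher. That gene was Cngb3, the beta subunit of the cone channel, at 27.8, 24.9 and 23.2 CPM in WT and 18.0, 15.5 and 20.3 CPM in KO (-0.49 ± 0.17, unadjusted p = 0.0102), with every KO library below every WT library. The cone opsins Opn1sw and Opn1mw had log2 fold changes of 0.23 and 0.52 with overlapping groups. The list was at 0.24, -0.15 and -0.09 in WT libraries 1 to 3 and at -0.30, 0.06 and 0.18 in KO libraries 1 to 3, so that WT library 1 was the highest and KO library 1 the lowest here too. The difference between the rod and the cone list was not tested.

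Genes of the outer segment itself were lower in a similar way. Of 26 genes listed for the outer segment, 25 had a log2 fold change below 0 (median -0.23), 9 were lower at an unadjusted p under 0.1 (34.6%, against 2.87% of all genes), and none was higher. The list holds 2 regulators that also stand in the transcription factor list, Samd7 and Samd11, and the other 24 genes gave 8 lower, none higher and a median of -0.23. Fscn2, a photoreceptor fascin that bundles actin, was at 25.0, 24.8 and 23.5 CPM in WT and 13.1, 15.3 and 18.1 CPM in KO (-0.66 ± 0.20, unadjusted p = 0.00491), and all KO libraries were below all WT libraries. Prph2 and Rom1, the tetraspanins of the disc rim, had log2 fold changes of -0.38 ± 0.16 and -0.34 ± 0.14 (unadjusted p = 0.0309 and 0.0297), with Rom1 at 1320.0, 1250.0 and 1120.0 CPM in WT and 887, 999 and 1029 CPM in KO. Prom1, which acts at the base of the outer segment where discs form, gave -0.24 ± 0.11 (unadjusted p = 0.0534). The count of 9 was 3 without KO library 1, 3 without WT library 1, 3 without KO library 1 and WT library 2, 6 with the Y-linked covariate, and 16 when the P10 libraries were fitted alone. WT library 1 was the highest of the 6 for 23 of the 26 genes and KO library 1 the lowest for 20.

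Of 55 genes of the photoreceptor cilium, which joins the inner to the outer segment, 5 were lower at an unadjusted p under 0.1 (9.09%, against 2.87% of all genes) and none higher, with a median of -0.04. Bbs5, a subunit of the BBSome that sorts membrane proteins in cilia, was at 72.5, 58.2 and 56.8 CPM in WT and 50.02, 47.7 and 54.5 CPM in KO (-0.30 ± 0.12, unadjusted p = 0.0207). Arl6, the GTPase that recruits the BBSome, and Cc2d2a, a protein of the transition zone, gave -0.24 ± 0.11 and -0.25 ± 0.10. Of 25 ribbon synapse genes, 4 were lower (16%, against 2.87%) and none higher, with a median of -0.09. Cabp4, the calcium sensor that tunes the calcium channel of photoreceptor terminals, was at 40.4, 42.1 and 37.7 CPM in WT and 21.9, 30.6 and 30.7 CPM in KO (-0.53 ± 0.21, unadjusted p = 0.0228), and every KO library was below every WT library. Egflam, which encodes pikachurin, a matrix protein of the ribbon synapse, and Unc13b, a priming factor of synaptic vesicles, gave -0.25 ± 0.10 and -0.27 ± 0.12 with unadjusted p-values of 0.0219 and 0.0394. KO library 1 was the lowest of the 6 for 19 of the 25 synapse genes, and WT library 1 was the highest for 28 of the 55 cilium genes.

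Among 22 transcription factors of photoreceptors, 4 were lower at an unadjusted p under 0.1 (18.2%, against 2.87% of all genes) and none higher, with a median of -0.09. Samd7, a rod polycomb protein that keeps non-rod genes silent (chromosome 3, 30746293 to 30767174, forward strand), was at 304, 287 and 301 CPM in WT and 243, 214 and 215 CPM in KO (-0.41 ± 0.11, unadjusted p = 0.00148). Crx (chromosome 7, 15865947 to 15879968, reverse strand), which drives rod and cone genes, was at 1455, 1343 and 1384 CPM in WT and 1216, 1222 and 1193 CPM in KO (-0.20 ± 0.08, unadjusted p = 0.0165). In both genes every KO library was below every WT library, and the 3 KO libraries of Crx spanned less than its WT libraries did. Neurod1, a basic helix-loop-helix factor of photoreceptors, was at 366, 319 and 342 CPM in WT and 289, 258 and 309 CPM in KO (-0.26 ± 0.12, unadjusted p = 0.038). Nrl, which sets the rod fate, was at 1460.5, 1353 and 1246 CPM in WT and 1104, 1105 and 1318 CPM in KO (-0.20 ± 0.09, unadjusted p = 0.0462), and Nr2e3, its partner, gave -0.16 ± 0.10 (unadjusted p = 0.111). Both of these overlapped between the groups through KO library 3.

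At P6 the log2 fold changes were 0.12 for Crx and 0.01 for Samd7. The effect at P10 differed from that at P6 by -0.32 ± 0.11 (SE, unadjusted p = 0.0085) for Crx and by -0.42 ± 0.15 (SE, unadjusted p = 0.0129) for Samd7, and both adjusted p-values were 1 in edgeR. At P14 they were -0.06 for Crx and -0.46 for Samd7. In WT, Crx and Samd7 did not pass the test of a change from P6 to P14 (0.23 ± 0.09 and 0.12 ± 0.12 on the log2 scale, edgeR adjusted p = 0.0635 and 0.402), whereas Gucy2f (3.67 ± 0.13) and Fscn2 (1.59 ± 0.22) rose.

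Genes whose level depends on age in WT retina were followed as classes, which were set by edgeR from the WT libraries of P6 and P14 and so use no P10 library. Of 1923 genes that rose by at least 1 on the log2 scale (adjusted p under 0.05), 5.98% were higher and 5.51% lower in KO at P10 at an unadjusted p under 0.1, with a median log2 fold change of 0.00. Of 1304 genes that fell by at least 1, 2.91% were higher and 2.45% lower, with a median of 0.00. For the other 12462 genes the shares were 3.242% and 2.49%. The mean log2 difference of the rising class was 0.16, -0.11 and -0.05 in WT libraries 1 to 3 and -0.02, 0.15 and -0.02 in KO libraries 1 to 3, so that the groups overlapped. Rising genes thus held larger shares in both directions than the other classes, and the difference of shares was not tested. Their median ran from -0.064 to 0.097 with 1 library left out. With a threshold of 2 on the log2 scale, 9.20% of 511 rising genes were higher and 7.05% lower, with a median of 0.06. Of 189 falling genes, 3.70% were then higher and 4.23% lower, with a median of 0.00.

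Rab5, which RabGEF1 activates, and the early endosome differed little between libraries. The list of 54 genes was at 0.01, -0.01 and 0.00 in WT libraries 1 to 3 and 0.01, 0.00 and 0.01 in KO libraries 1 to 3, with a median log2 fold change of -0.01. At an unadjusted p under 0.1, 2 members were higher (3.70%, against 3.71% of all genes) and none lower. Among them was Rin2, another exchange factor for Rab5 (0.24 ± 0.13). Rab5a was at 85.6, 86.6 and 92.5 CPM in WT and 83.8, 76.8 and 92.5 CPM in KO (-0.06 ± 0.11), Rabep1, which encodes Rabaptin-5, at 120.0, 123 and 122 CPM in WT and 116, 115 and 126 CPM in KO (-0.03 ± 0.08), and Eea1 at 54.8, 51.6 and 47.4 CPM in WT and 49.4, 44.9 and 50.5 CPM in KO (-0.09 ± 0.11). All 3 overlapped between the groups, with unadjusted p-values of 0.57, 0.67 and 0.443.

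Of 51 autophagy genes, 2 were higher (3.92%, against 3.71% of all genes) and 1 lower (1.96%, against 2.87%) at an unadjusted p under 0.1, with a median of -0.01. Atg4d, a protease that processes LC3 family proteins, was at 35.1, 35.5 and 35.0 CPM in WT and 28.6, 27.8 and 25.8 CPM in KO (-0.36 ± 0.15, unadjusted p = 0.0297), and every KO library was below every WT library. Wipi1, which binds phosphoinositides on forming autophagosomes, was at 88.5, 75.4 and 86.4 CPM in WT and 85.8, 123 and 90.3 CPM in KO (0.26 ± 0.12), and KO library 2 was the highest. The autophagy receptor p62 (Sqstm1) and the LC3 genes Map1lc3a and Map1lc3b had log2 fold changes of 0.07 ± 0.10, -0.11 ± 0.13 and 0.00 ± 0.09 with unadjusted p-values of 0.522, 0.439 and 0.972. Of 67 lysosomal genes, 46 had a log2 fold change above 0 (median 0.04), 4 were higher (5.97%, against 3.71%) and 2 lower (2.99%, against 2.87%). The higher ones were the cathepsins Ctss (0.44 ± 0.22) and Ctsc (0.41 ± 0.23), the sulfatase Galns (0.39 ± 0.22) and the acid phosphatase Acp2 (0.14 ± 0.07), and the groups overlapped in all 4. Sgsh and Ctsf, a sulfatase and a cathepsin of the lysosome, were the 2 lower ones (-0.998 ± 0.52 and -0.17 ± 0.08), with all KO libraries below all WT libraries.

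Enzymes of cholesterol biosynthesis lay mostly above WT. Of 21 genes, 20 had a log2 fold change above 0 (median 0.12), 6 were higher at an unadjusted p under 0.1 (28.6%, against 3.71% of all genes), and none was lower. Fdft1, squalene synthase, was at 78.6, 70.3 and 70.7 CPM in WT and 81.6, 85.7 and 90.5 CPM in KO (0.23 ± 0.08, unadjusted p = 0.0144), and Fdps, farnesyl diphosphate synthase, was at 75.8, 73.0 and 69.6 CPM in WT and 78.5, 85.7 and 84.7 CPM in KO (0.19 ± 0.07, unadjusted p = 0.023). In both genes every KO library was above every WT library. Lss, lanosterol synthase, gave 0.21 ± 0.08 (unadjusted p = 0.0188) with KO library 1 just below WT library 1, and Cyp51, Sqle and Hsd17b7 gave 0.25, 0.17 and 0.28. Hmgcs1, which acts early in the pathway, gave 0.10 ± 0.09 with overlapping groups. KO library 1 was lowest of the 3 in the list mean (0.02, 0.14 and 0.19 in KO libraries 1 to 3, 0.07, -0.02 and -0.05 in WT). The count of 6 was 3 to 8 with 1 library left out (3 without KO library 3) and 4 with the Y-linked covariate. The sterol element TCACNCCAC, searched on both strands, was in 1 of the 16 promoters of this list that were in the table (6.25%) and in 1.22% of all promoters.

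Of 22 genes of sterol regulation, 3 were higher (13.6%, against 3.71% of all genes) and 1 lower (4.55%, against 2.87%) at an unadjusted p under 0.1, with a median of 0.04. Insig1, which holds the SREBP complex in the endoplasmic reticulum and is itself a target of SREBP, was at 49.0, 44.7 and 46.3 CPM in WT and 49.6, 60.6 and 60.8 CPM in KO (0.29 ± 0.09, unadjusted p = 0.00759), with every KO library above every WT library. Abcg1, an exporter of sterols that is a target of liver X receptors, was at 78.2, 86.9 and 91.3 CPM in WT and 63.6, 80.2 and 61.4 CPM in KO (-0.32 ± 0.11, unadjusted p = 0.0116), and KO library 2 lay above WT library 1. The effect on Insig1 differed from that at P6 by 0.33 ± 0.13 (SE, unadjusted p = 0.0268, edgeR adjusted p = 1).

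**Figure D5:**
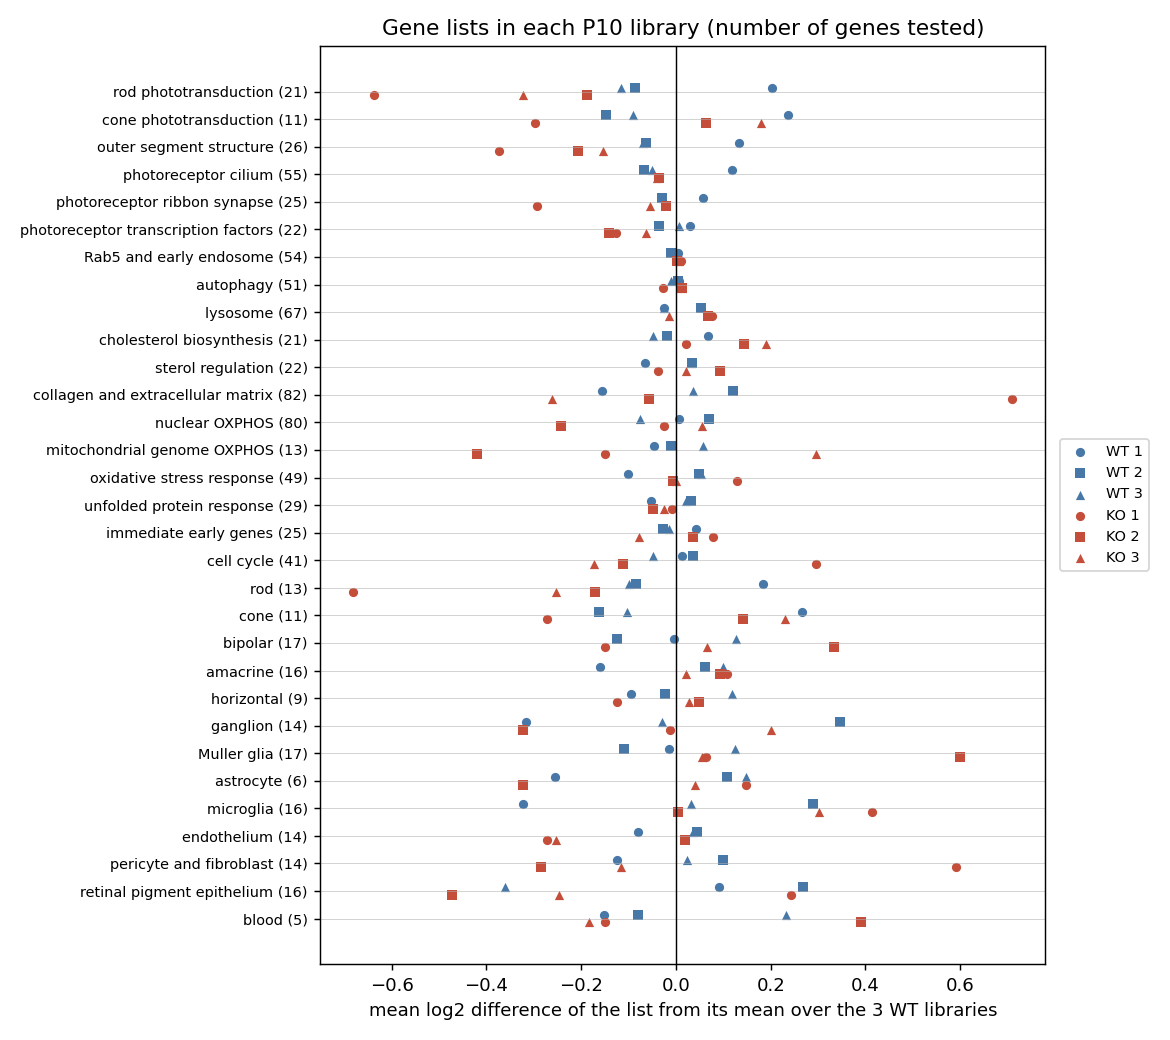
Mean log2 difference of each gene list from its mean over the 3 WT libraries, for each P10 library (blue WT, red KO, symbols give the replicate, the number of genes tested in brackets). The lens and Y-linked lists are left out since they exceed the scale. The KO points of the rod and outer segment lists lie left of all WT points, while KO library 1 alone lies far right for the matrix and pericyte lists and KO library 2 alone for Müller glia.

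The largest count of higher genes was in the list of collagens and extracellular matrix, and it followed 1 library. Of 82 genes, 14 were higher and 4 lower at an unadjusted p under 0.1 (17.1% and 4.88%, against 3.71% and 2.87% of all genes), with a median of 0.21. The list mean was 0.71, -0.06 and -0.26 in KO libraries 1 to 3, and KO library 1 was the highest of the 6 for 53 genes. Hspg2, the basement membrane proteoglycan perlecan, was at 33.8, 46.4 and 37.8 CPM in WT and 199.6, 37.6 and 30.8 CPM in KO, and Nid1, nidogen, at 38.8, 48.7 and 41.5 CPM in WT and 172, 46.0 and 36.8 CPM in KO, in both cases high in KO library 1 alone. Without KO library 1 the count of higher genes was 2 and the median -0.11, whereas the count was 8 without WT library 1 and 32 without KO library 3. KO library 1 also held the lens RNA described above, with the alpha crystallin gene Cryab at 25.8, 49.98 and 37.0 CPM in WT and 325, 45.8 and 32.9 CPM in KO. The other alpha crystallin gene, Cryaa, was at 0.370, 69.6 and 1.77 CPM in WT and 696, 3.25 and 12.3 CPM in KO. Without KO library 1 the median log2 fold change of the 24 lens markers was -1.63. The order was the opposite for Col15a1, a collagen of basement membranes, at 4.62, 5.66 and 5.60 CPM in WT and 2.87, 2.64 and 2.63 CPM in KO (-0.97 ± 0.33, unadjusted p = 0.00995), with all KO libraries below all WT libraries. Loxl2, a collagen cross-linking enzyme, and P4ha2, a collagen hydroxylase, gave 0.49 ± 0.17 and 0.59 ± 0.23, with the highest values in KO library 1.

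Few markers of the other retinal cells passed the test. Of the 13 rod markers, 6 of which are also in the phototransduction list, 7 were lower at an unadjusted p under 0.1 (53.8%, against 2.87% of all genes), among them Nxnl1, a thioredoxin-like gene of photoreceptors, at 273, 240.3 and 225 CPM in WT and 170.3, 192 and 207 CPM in KO and Susd3 at 84.9, 74.7 and 69.5 CPM in WT and 39.1, 53.2 and 53.9 CPM in KO, and the count was 4 without KO library 1, 3 without WT library 1 and 2 without KO library 1 and WT library 2. No marker of cones (11), bipolar cells (17), horizontal cells (9) or ganglion cells (14) passed in either direction, against 6.58% of all genes. Of 16 amacrine markers, 1 was higher (6.25%, against 3.71% of all genes). All 17 Müller glia markers had a log2 fold change above 0 (median 0.27), and 5 were higher at an unadjusted p under 0.1 (29.4%, against 3.71% of all genes). KO library 2 was the highest of the 6 for 13 of them, as for Glul, glutamine synthetase, at 765, 727 and 1021 CPM in WT and 724, 1735 and 1034 CPM in KO, and Dkk3 at 359.9, 387 and 426 CPM in WT and 462, 602 and 407 CPM in KO. Without KO library 2 the count was 0 and the median 0.07, and it was 1 without WT library 1 or without WT library 2 2 with limma-voom and 8 without KO library 3. KO library 2 was also the highest for 13 of the 17 bipolar markers. Vim, vimentin, was at 146, 149 and 170.2 CPM in WT and 217, 208 and 147 CPM in KO, with KO libraries 1 and 2 above the others.

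Of 16 microglia markers, 3 were higher (18.8%, against 3.71% of all genes) and none lower, with a median of 0.22. Tmem119, a marker of resident microglia, was at 1.36, 1.30 and 1.36 CPM in WT and 2.52, 2.35 and 3.31 CPM in KO (1.03 ± 0.35, unadjusted p = 0.00987), and every KO library was above every WT library at this low level. Itgam, the integrin chain CD11b of myeloid cells, is not one of the 16 markers and was at 8.02, 11.8 and 9.26 CPM in WT and 16.1, 12.4 and 15.9 CPM in KO (0.61 ± 0.15, unadjusted p = 0.000942). It was named for its small p and lack of overlap, so these add no independent evidence on microglia. The summed level of the 16 markers was 191 to 300.1 CPM in WT and 249 to 324 CPM in KO, with WT library 1 the lowest, and the median was 0.06 without WT library 1. Among 14 endothelial markers 1 was higher (7.14%, against 3.71% of all genes) and 2 lower (14.3%, against 2.87%). Kdr, a receptor of VEGF, was at 319.8, 306 and 349 CPM in WT and 334, 556 and 385 CPM in KO with KO library 2 the highest, and Cldn5, a tight junction protein, was at 17.6, 22.1 and 18.7 CPM in WT and 14.4, 15.8 and 11.8 CPM in KO with all KO libraries below all WT libraries. Of 16 markers of the retinal pigment epithelium, 1 was higher (6.25%, against 3.71% of all genes) and 2 lower (12.5%, against 2.87%), with 7 above and 9 below 0. Trpm3, a cation channel, was at 184, 220.1 and 213 CPM in WT and 283, 213 and 251 CPM in KO (0.28 ± 0.12, unadjusted p = 0.03), with overlap. Rpe65, the visual cycle isomerase, was at 13.9, 16.7 and 10.4 CPM in WT and 7.63, 7.68 and 8.11 CPM in KO. None of 5 blood and 14 pericyte and fibroblast markers passed, against 6.58% of all genes in either direction.

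Respiratory chain genes of the nucleus were lowest in KO library 2. Of 80, 69 had a log2 fold change below 0 (median -0.07). At an unadjusted p under 0.1, 1 was higher (1.25%, against 3.71% of all genes) and 2 were lower (2.5%, against 2.87%). The list mean was 0.01, 0.07 and -0.08 in WT libraries 1 to 3 and -0.03, -0.24 and 0.06 in KO libraries 1 to 3. Ndufb11, a complex I subunit, was at 145, 156 and 134 CPM in WT and 120.4, 108 and 139 CPM in KO (-0.25 ± 0.10), and Cox17, a copper chaperone of complex IV, at 17.4, 22.4 and 17.2 CPM in WT and 17.4, 11.8 and 15.4 CPM in KO (-0.35 ± 0.14), with KO library 2 the lowest in both. The higher gene was Atp5g2, of complex V, at 9.31, 8.55 and 12.1 CPM in WT and 13.9, 10.7 and 19.4 CPM in KO (0.55 ± 0.24), with overlap. Without KO library 2 the median of the 80 genes was 0.00. None of the 13 genes of the mitochondrial genome passed, against 6.58% of all genes in either direction. Of 49 oxidative stress genes, 4 were higher (8.16%, against 3.71% of all genes) and 2 lower (4.08%, against 2.87%). Gsta4, a glutathione transferase that clears lipid peroxidation products, was at 17.8, 17.2 and 16.4 CPM in WT and 22.4, 25.3 and 21.9 CPM in KO (0.44 ± 0.17, unadjusted p = 0.0232), with every KO library above every WT library, whereas Gstm1 was at 8.45, 15.1 and 13.7 CPM in WT and 52.4, 13.96 and 12.3 CPM in KO and high in KO library 1 alone. Of 29 genes of the unfolded protein response, 1 was lower (3.45%, against 2.87% of all genes) and none higher. It was Hsp90b1, an endoplasmic reticulum chaperone, at 577, 659.5 and 598 CPM in WT and 536, 505 and 548 CPM in KO (-0.21 ± 0.08, unadjusted p = 0.0262). None of 41 cell cycle genes passed (against 6.58% of all genes in either direction), with KO library 1 the highest of the 6 for 26.

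Of 25 immediate early genes, which respond to stimulation within minutes, 2 were higher (8%, against 3.71% of all genes) and 1 lower (4%, against 2.87%) at an unadjusted p under 0.1, with a median of 0.01. Egr1 was at 27.9, 14.1 and 11.6 CPM in WT and 22.4, 34.4 and 47.5 CPM in KO (0.96 ± 0.32, unadjusted p = 0.00858), and WT library 1 lay above KO library 1. Fosl1 was at 2.96, 2.89 and 2.89 CPM in WT and 4.47, 4.60 and 4.05 CPM in KO and Ier3 at 27.3, 29.3 and 25.1 CPM in WT and 23.5, 20.4 and 18.4 CPM in KO, with log2 fold changes of 0.59 ± 0.21 and -0.39 ± 0.14, and in these the groups did not overlap.

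The 10 higher and 10 lower genes with the smallest p among those without overlap were also examined, whether or not they were in a list. The higher genes were Echdc3, Gal3st4, Itgam, Ildr2, Ifitm10, Htra1, Naip2, Pcdhga1, Mxra7 and Ak8. Echdc3, named for an enoyl-CoA hydratase domain, was at 1.23, 1.00 and 0.884 CPM in WT and 2.75, 1.96 and 2.57 CPM in KO (1.22 ± 0.28, unadjusted p = 0.000475). Gal3st4, a sulfotransferase that acts on galactose residues, was at 20.04, 17.7 and 19.2 CPM in WT and 38.0, 32.6 and 34.9 CPM in KO (0.89 ± 0.21, unadjusted p = 0.000684). Htra1, a secreted serine protease, was at 86.1, 76.8 and 76.4 CPM in WT and 140.4, 100.2 and 102 CPM in KO (0.52 ± 0.14, unadjusted p = 0.00173), and its effect at P6 was 0.54. Ildr2, Ifitm10, Mxra7 and Ak8 had log2 fold changes of 0.43, 0.76, 0.27 and 1.13. Naip2 (1.27) and Pcdhga1 (0.54) belong to clusters of similar or overlapping genes, and how their reads were divided is uncertain.

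The lower genes were Zfp781, Capn11, Asb1, Fam3c, Ahcy, Slc26a2, Nanp and Gulo, and the list members Guca1b and Samd7 already described. Zfp781, a zinc finger gene (chromosome 10, 81901911 to 81930480, reverse strand), was at 2.96, 2.77 and 5.60 CPM in WT and at 0 in all 3 KO libraries, which is at least 21.9-fold lower when a floor of 3 counts in a library is taken. It was also at 0 in the 3 WT libraries of P6, at 2.73, 0 and 2.78 CPM in the 3 KO libraries of P6 and at 7.85 and 4.00 CPM in the 2 KO libraries of P14, and it belongs to a large family with similar sequences. Capn11, a calpain protease (chromosome 17, 45630204 to 45659325, reverse strand), was at 15.5, 19.8 and 7.25 CPM in WT and 0.115, 0.336 and 1.60 CPM in KO (-4.37 ± 1.13, unadjusted p = 0.00142). At P6 its order was the opposite, with 0, 0.175 and 0.0525 CPM in WT and 8.58, 12.3 and 0.0592 CPM in KO, and the effects differed by -10.74 ± 1.91 (SE, unadjusted p = 4.09e-05, edgeR adjusted p = 0.335). At P14 it was at 3.50, 0.436 and 7.64 CPM in WT and 12.6 and 8.80 CPM in KO. Low and high libraries thus occurred in both genotypes over the 3 ages.

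Ahcy, which clears S-adenosylhomocysteine, was at 1.73, 24.4 and 21.3 CPM in WT and 1.43, 1.40 and 0.971 CPM in KO, so that WT library 1 was nearly as low as the KO libraries. This gene has processed copies in the mouse genome that may take some of its reads. At P14 both genotypes held a library with little of it (1.58 CPM in KO library 1 and 1.56 CPM in WT library 4) and a library with more (16.3 CPM in KO library 2 and 18.9 CPM in WT library 3). Nanp, a sialic acid pathway phosphatase, was at 1.17, 4.54 and 2.18 CPM in WT and 0.115, 1.07 and 0 CPM in KO. Fam3c, a secreted protein, and Asb1, an ankyrin repeat protein, were at 115, 107 and 105 CPM in WT and 89.9, 91.7 and 93.1 CPM in KO and at 40.1, 36.9 and 40.0 CPM in WT and 29.1, 33.5 and 28.0 CPM in KO, with log2 fold changes of -0.25 ± 0.07 and -0.37 ± 0.10 (unadjusted p = 0.00225 and 0.0015). Slc26a2, a sulfate transporter, was at 68.1, 63.6 and 70.5 CPM in WT and 52.7, 60.6 and 53.3 CPM in KO (-0.28 ± 0.08), and Gulo, an enzyme of vitamin C synthesis, at 19.7, 21.9 and 22.2 CPM in WT and 11.5, 14.4 and 16.4 CPM in KO (-0.60 ± 0.17). In these 4 genes every KO library was below every WT library, which was a condition for naming them, and none passed an adjusted p of 0.05 in edgeR.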

How the data were processed

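Whole mouse retina at P6, P10 and P14 was sequenced as 17 strand-specific poly(A) libraries, and the 6 libraries of P10 carry the comparison. Per the submitters' processing notes, reads were checked with FastQC, trimmed with Trimmomatic 3.6 and quantified with kallisto 0.44 against Ensembl v84 (GRCm38). The authors deposited estimated counts per gene and per transcript, of which 39.6% of the gene values are not whole, and these were rounded. Tables of the authors' scaled CPM and of their log2 fold changes and p-values were not used. Symbols were matched by gene ID to GENCODE M21 (31907 of 32177), and 858 of 870 list entries were matched.

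The counts were filtered with filterByExpr, scaled by TMM and tested with edgeR's quasi-likelihood test (edgeR 4.0.16, limma 3.58.1, DESeq2 1.42.0, R 4.3.3) in 1 fit of all 17 libraries with a coefficient for each age and genotype, which keeps 1 estimate of spread. All tests were two-sided, and p-values were adjusted by Benjamini and Hochberg over all genes tested. CPM are TMM-scaled. Log2 CPM, used for the list means and the correlations between libraries, had a prior count of 2. Fitted log2 fold changes kept edgeR's default. Transcripts were compared by exact permutation tests. The P10 libraries held 16465318 to 17842849 counts, so that low genes rest on few counts, and floors cover counting error only. In the main fit, p-values set each difference against the spread between libraries of a group, estimated over all 17 libraries. The scripts were tested on simulated data.

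Genes were named by rule: Rabgef1, phototransduction genes at an unadjusted p under 0.1, up to 3 members of each other list at an unadjusted p under 0.05, 10 genes in each direction with the smallest p among those without overlap and with a mean of at least 1 CPM, and genes that work with these or whose proteins the study measured. Other list members were named after their values were seen, to fill in a pathway. Some genes that the rule names are not reported here. The members, lists and tests were chosen with earlier results of these data known. Alternatives covered scaling, tool, filter, table, libraries in the fit, a replicate block and leaving out each library, and 2 more, the Y-linked covariate and the removal of KO library 1 and WT library 2, were chosen after seeing the data.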

Additional observations from a re-analysis of the deposited data

How the results depend on the processing

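The 1077 genes at unadjusted p under 0.1 became 813 with at least 10 counts in every library, 1497 without a filter and 984 to 1193 with 1 library left out. At an adjusted p under 0.05 there were 0 genes in edgeR, 9 with DESeq2, 1 with the Y-linked covariate and 0 to 1 with 1 library left out. Labels give P10 libraries of both genotypes the numbers 1 to 3, but nothing says that a number marks a litter or day. Correlations of same-numbered libraries, computed on deviations from the group means, were -0.285, -0.248 and 0.026. Such deviations sum to 0 within a group of 3, so the correlations cannot tell whether a litter or day was shared. With the replicate block, 915 genes passed, matrix genes higher in KO were 7 and Müller markers 2.

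With 1 library left out, members lower in KO numbered 4 to 16 for rod phototransduction, 3 to 11 for the outer segment and 3 to 9 for rod markers, and members higher in KO numbered 3 to 8 for cholesterol biosynthesis, 2 to 32 for matrix and 0 to 8 for Müller glia. Without KO library 1 and WT library 2 these counts were 5 for rod phototransduction, 3 for the outer segment, 2 for rod markers and 1 for matrix. The outer segment count was 16 with P10 fitted alone, and limma-voom gave 6 for matrix and 2 for Müller glia. The cause of these moves was not tested. Classes of 511 rising and 189 falling genes resulted from a threshold of 2 on the log2 scale.

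Log2 fold changes with 1 library left out were -0.22 to 0.070 for Rabgef1, -0.28 to 0.020 for Guca1a and -0.065 to 0.062 for Map1lc3b. Map1lc3b was 2.9e-06 with P10 fitted alone and 0.039 without KO library 1 and WT library 2. List medians with 1 library left out were -0.15 to -0.074 for photoreceptor transcription factors, -0.0094 to 0.0082 for Rab5 and early endosome, 0.055 to 0.20 for cholesterol biosynthesis, -0.41 to 0.038 for pigment epithelium and -1.63 to 4.79 for lens. With the Y-linked covariate the medians were -0.047 for transcription factors, -0.017 for Rab5, -0.28 for blood and 0.26 for Y-linked genes. Without KO library 1 and WT library 2 they were -0.13 for transcription factors and -0.069 for immediate early genes. The Y-linked median was 3.36 with at least 10 counts in every library. Depth limits the genes under about 1 CPM.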
